A study of Mus musculus with 4 samples.

Results

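The genes described here encode the proteins of the cytoplasmic ribosome and were followed in Th2 cells with and without Menin, a chromatin-associated protein of Trithorax-type complexes. Members were found by gene symbol, as Rpl, Rps or Rplp followed by a number, leaving out pseudogene symbols and the Rps6k kinases. The pattern matched 85 symbols, and the 82 with a mean of at least 1 FPKM over the 4 libraries were kept, out of 10973 symbols of the series that met the same minimum. FPKM counts read fragments per length of transcript and per depth of library, so each value is relative to the other RNA of its library. Of the 82 members, 76 are ribosomal proteins in the ordinary sense, 30 of the small subunit and 46 of the large subunit, with the 3 proteins of the stalk counted in the large subunit. The other 6 are close relatives or similar symbols, Rpl22l1, Rpl36al, Rps27l, Rpl7l1, Rps4y2 and Rps19bp1. Rpl39l, at a mean of 0.98 FPKM, lay just under the minimum, and Rps4y2, at 1.57 FPKM, just above it. Rpl3l and Rpl10l, both at a mean of 0.01 FPKM, were the other matched symbols outside.

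The study compared wild-type (WT) and Menin-knockout (KO) Th2 cells of the C57BL/6 strain, grown from splenic CD4 T cells and measured by RNA sequencing. WT 5-day and KO 5-day cells were stimulated for 5 days with 15 ng/ml IL-2 and 10 ng/ml IL-4. WT 3-week and KO 3-week cells had the same first stimulation, then a rest of 2 days with no cytokine added and a second stimulation of 5 days by immobilized anti-TCR, in IL-2 plus anti-IL-4. The listed steps of the longer culture add up to less than 3 weeks, and neither the age of the mice nor the way Menin was deleted is given in the sources used here. Each of the 4 groups held 1 library, so the values carry no replicate error, no difference was tested, and a difference between 2 groups cannot be told apart from a difference between 2 cultures. Below, 4 values in a row without labels are for WT and then KO at 5 days, followed by WT and then KO at 3 weeks. Inferred depth ranged from 20.7 to 23.5 M reads. Men1, the gene of Menin, stood at 32.8 FPKM for WT and 10.3 for KO at 5 days, then 25.4 for WT and 5.88 for KO at 3 weeks. The summed level of the 4 measured markers of helper T and Th2 cells (Cd3e, Cd4, Gata3 and Il4ra) was 501 to 736 FPKM. Its parts went in different directions at 3 weeks. Cd3e was at 206 FPKM in WT and 318 in KO and Cd4 at 212 and 307, while Gata3 was at 93.8 and 45.9 and Il4ra at 87.5 and 65.4. Marker sums of other cell types were lower, at 0 to 1.05 FPKM for B cells, 0.02 to 2.07 for NK cells, 2.04 to 5.70 for CD8 T cells, 0.23 to 6.79 for myeloid cells and 0.95 to 12.1 for red cell precursors.

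Ribosomal proteins assemble on ribosomal RNA in the nucleolus, nearly always as a single copy of each protein per ribosome, and the stalk proteins Rplp1 and Rplp2 are the known exception, present as pairs on Rplp0. Activated T cells make ribosomes in large numbers before they divide. The mRNAs of vertebrate ribosomal proteins typically begin with a C followed by an unbroken run of pyrimidines (C or T), the 5′ terminal oligopyrimidine or TOP motif, through which mTOR signalling and the RNA-binding protein Larp1 control their translation. FPKM values measure mRNA level only and say nothing of that translational control.

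The TOP motif is the sequence feature that the members are known to share, so the start regions of 10 of them are printed here. The sequences are RefSeq promoter windows on GRCm38.p6, on the gene's own strand, from 10 bases before to 20 bases from the annotated transcript start. Capitals mark a run that opens with C and goes on for at least 4 further pyrimidines, beginning within 5 bases of that start. Where several C bases could open the run, the one nearest to that start was taken, so pyrimidines just before it may stand in small letters. In order, the windows are chr4:86857348-86857377 (minus strand), chr11:114668570-114668599 (plus), chr17:27635225-27635254 (minus), chr2:39005112-39005141 (minus), chr7:4792955-4792984 (plus), chr7:45128726-45128755 (minus), chr9:66946076-66946105 (plus), chr3:28805498-28805527 (plus), chr17:46782637-46782666 (minus) and chr15:80264287-80264316 (minus). The first 6 are ribosomal proteins in the ordinary sense and the last 4 are relatives or similar symbols, among them Rpl7l1, Rps27l and Rps19bp1, which are 3 of the 4 members with the lowest ratio of KO to WT in the longer culture (Rpl30 is the other).
Rps6: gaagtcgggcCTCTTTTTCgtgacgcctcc
Rpl38: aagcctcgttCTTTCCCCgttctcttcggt
Rps10: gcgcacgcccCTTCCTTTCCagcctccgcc
Rpl35: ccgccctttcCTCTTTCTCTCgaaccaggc
Rpl28: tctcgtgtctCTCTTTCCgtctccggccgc
Rpl13a: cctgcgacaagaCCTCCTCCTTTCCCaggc
Rps27l: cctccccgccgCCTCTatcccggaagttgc
Rpl22l1: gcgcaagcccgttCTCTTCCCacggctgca
Rpl7l1: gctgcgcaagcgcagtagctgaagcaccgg
Rps19bp1: cggaagtagctcgccgcgtgtgggcggggc

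The table held a promoter entry for 61 of the 82 members, and 29 of these, 47.5%, had such a run in at least 1 window, against 21.2% of the 27025 genes of the table. In Rps6, Rpl38, Rps10, Rpl35 and Rpl28 the marked run began at the annotated first base, in Rpl13a 2 bases after it. In Rps6, Rps10, Rpl35 and Rpl28 the pyrimidines directly before the marked run included a C, so their unbroken runs opening with C began upstream of the annotated first base. In Rpl38 the pyrimidines directly before the marked run were T only, so the run opening with C began at the annotated first base. Rpl7l1 and Rps19bp1 had no run in the window searched, while Rps27l had a short one in 1 of its 2 windows. Across the longer windows of 250 bases before to 50 after the start, both strands, CCGGAA (the core recognised by ETS-family factors) stood in 54.1% of members and 16.7% of all genes. GGGCGG, the GC box bound by Sp1, stood in 63.9% of members and 38.2% of all genes, and TATAAA in 11.5% of members and 15.7% of all genes. None of the 4 letter patterns contains another, though their matches may overlap in a window. The 27 ordinary ribosomal protein genes with a pyrimidine start had median log2 ratios of KO to WT of -0.07 at 5 days and -0.02 at 3 weeks, and the 29 without one had -0.07 and -0.05, so the medians of these subsets lay close together at both times.

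Ribosomal protein genes took a large part of the measured RNA in every library. Together the 82 members held 13.0% of all FPKM in WT and 12.2% in KO at 5 days, then 11.4% in WT and 10.5% in KO at 3 weeks. The share was lower in KO than in WT at both times and lower in the longer than in the shorter culture for both genotypes. Short RNA genes, whose FPKM is unstable because of their length, took 9.66%, 9.18%, 8.99% and 6.89% of FPKM in that library order, and with them left out the members' shares were 14.4%, 13.4%, 12.5% and 11.3%. The order of the libraries was the same in both calculations. With granzyme genes left out of the total, an alternative added after the data were seen, the share of the KO 3-week library was 11.1%, the lowest of the 4 calculated in that way. In bulk libraries like these, fewer cells of a type and less RNA per cell cannot be told apart. With short RNA genes left out, the 100 genes with the highest FPKM included 44 members in WT and 38 in KO at 5 days. At 3 weeks they included 39 in WT and 33 in KO.

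The subunits kept a nearly fixed ratio to each other. Summed FPKM of the small-subunit genes was 0.77 of that of the large-subunit genes in WT and 0.77 in KO at 5 days, then 0.79 in both at 3 weeks. The ratio was slightly higher in both libraries of the longer culture and was alike in WT and KO of each time. Members differed far more from each other than between libraries. Median member level was 610 FPKM for WT and 573 for KO at 5 days, then 530 for WT and 508 for KO at 3 weeks, while single members ranged from 0.55 to 3737 FPKM in the WT 5-day library alone. A member's highest library was a median of 1.24 times its lowest, against 1.46 times for the 686 genes of at least 100 FPKM that are not short RNA genes. For 73 of the 82 the highest library was less than 1.5 times the lowest, and for 5 it was 2 times or more. These counts are not given for other genes here.

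**Figure D1:**
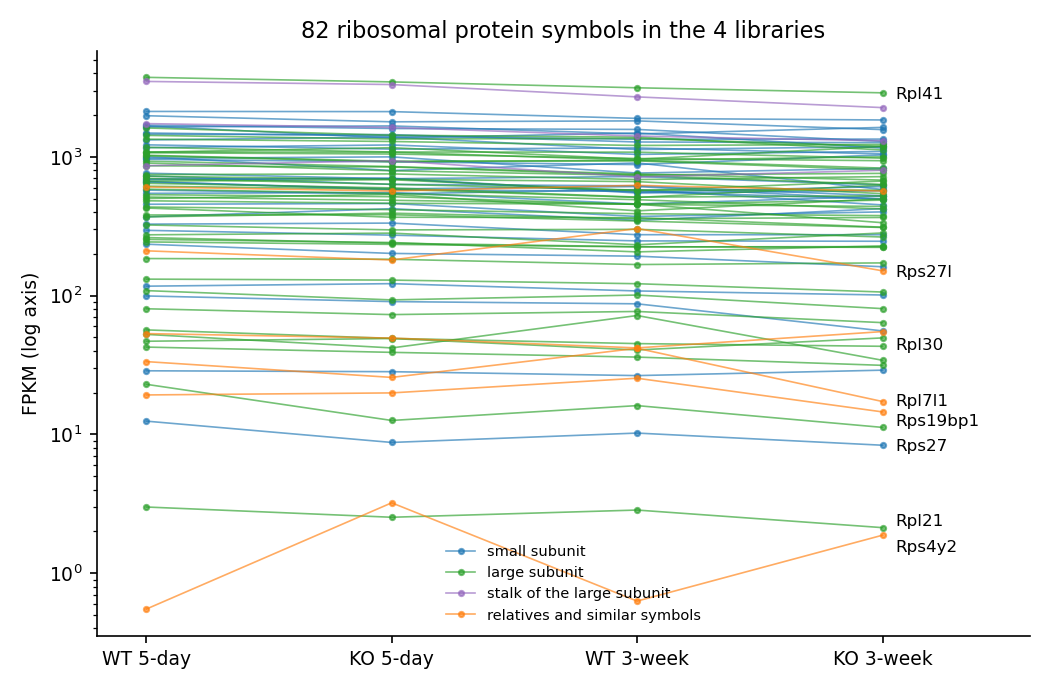
FPKM of each of the 82 members (log axis) in the 4 libraries, 1 line per gene, coloured by subunit. Most lines run nearly flat between about 100 and 3737 FPKM, while Rps27l, Rpl30, Rpl7l1 and Rps19bp1 peak in WT 3-week and drop in KO 3-week.

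The highest member was Rpl41, the shortest ribosomal protein, at 3737 FPKM for WT and 3464 for KO at 5 days, then 3142 for WT and 2890 for KO at 3 weeks. Rplp1, a stalk protein, followed at 3491, 3316, 2701 and 2262 FPKM in that library order. Rps15 had a mean of 1993 FPKM and Rps26 a mean of 1787 FPKM. Both Rpl41 and Rplp1 were highest in WT 5-day and lowest in KO 3-week, an order (WT before KO at 5 days, then WT before KO at 3 weeks) that 27 of the 82 members followed exactly. How many of all compared genes followed this order is not given here, so the count cannot be called particular to the members. At the other end, the lowest of the 82 was Rps4y2, at a mean of 1.57 FPKM. Among the 76 ordinary members, Rpl21 had the lowest mean at 2.63 FPKM, then Rps27 at 9.95 and Rpl26 at 15.7, followed by Rps15a at 28.1 and Rpl7a at 37.3.

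Proteins that enter the ribosome in equal numbers thus had FPKM values that differed by orders of magnitude, and the low values went with the number of near-identical copies of the gene. Ribosomal protein genes have many processed pseudogenes, and a read that fits several places may be split or lost, which depends on counting settings not given in the sources used here. Of the 82 members, 68 had at least 1 other annotated gene with a transcript matching 90% or more of the coding sequence at 97% identity or more (GENCODE M21), up to 32 for Rpl21. The 10 members with at least 10 copies included Rpl21, Rps12, Rpl7a, Rpl29, Rps2, Rpl17 and Rpl30, and their median level was 66.7 FPKM, against 642 FPKM for the other 66 ordinary members. Over those 76 members Spearman's rho of copies with mean level was -0.54, as a description across genes that share libraries and copies. Of the 11 ordinary members under 100 FPKM, 7 had at least 10 copies. Rps27 (2 copies), Rpl26 (4), Rps15a (5) and Rpl15 (8) were the other 4. The levels of all members with copies are uncertain as levels of the parent gene alone.

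**Figure D2:**
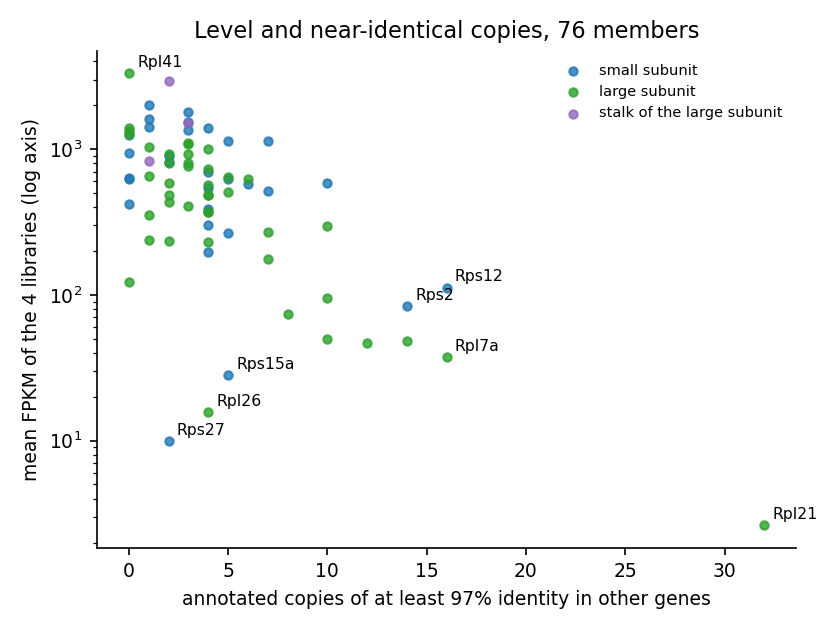
Mean FPKM over the 4 libraries (log axis) of the 76 ordinary ribosomal proteins against the number of other annotated genes with a near-identical copy, 1 point per gene, coloured by subunit. Members with 10 or more copies lie mostly under 100 FPKM, and Rpl21, with 32 copies, is the lowest point at 2.63 FPKM.

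After 5 days, ribosomal protein mRNA in KO cells was near the WT level. The median log2 ratio of KO to WT, taken as log2((KO + 1)/(WT + 1)) in FPKM, was -0.08 over the 82 members (quartiles -0.14 and 0.01), against -0.02 over the 10973 compared genes. Below 0 lay 60 members, beside 5881 of the compared genes. The quartiles of all compared genes, -0.18 and 0.17, were further apart. Only Rps4y2, which met the minimum mean through its KO values, was at least 2-fold higher in KO among the members, where 2.77% of compared genes were, and 0 were at least 2-fold lower, where 0.82% of compared genes were. At a smaller fold (KO at least 25% above or 20% below WT, after adding 1 FPKM to each), 1 member was higher in KO (14.5% of compared genes) and 4 were lower (10.9% of compared genes), among them Rpl26, Rps27 and Rpl7l1.

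In the longer culture the genotype ratios were spread more widely, both for the members and for genes at large. The members' median log2 ratio was -0.08 (quartiles -0.23 and 0.07), beside -0.08 over all compared genes, and it was 0.05 when libraries were scaled to the same upper quartile, so the direction of the members' median at 3 weeks depends on the scaling. That scaling moved the median of all compared genes from -0.08 to 0.03. Of the members, 3 were at least 2-fold lower in KO (8.19% of compared genes) and 0 were at least 2-fold higher (7.97% of compared genes). Under upper-quartile or median-of-ratios scaling 1 member was at least 2-fold lower, where 680 and 808 of the 10973 compared genes were. At the smaller fold, 10 were lower (34.6% of compared genes) and 2 were higher (24.5% of compared genes). The split was 7 lower and 10 higher under upper-quartile scaling, where 3048 of the 10973 compared genes were lower and 3353 higher. Under median-of-ratios scaling it was 8 lower and 8 higher, where 3472 compared genes were lower and 2979 higher. When libraries were scaled to equal sums without short RNA genes, 20 of the 82 were lower and 1 higher. In that setting 4297 of 10807 compared genes were lower and 2467 higher. The members as deposited therefore held smaller shares past each of these folds than genes at large at 3 weeks. Among the 686 genes of at least 100 FPKM without short RNA genes, the quartiles of the ratio at 3 weeks were 0.78 apart, and among the members 0.30 apart.

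Ratios at the 2 times resembled each other gene by gene, although the genotype contrasts share no library. Over the 76 ordinary ribosomal proteins, Pearson's r of the log2 ratios at 5 days and 3 weeks was 0.68 and Spearman's rho 0.78, as a description across genes, which share libraries and may share reads with copies. Of all 82 members, 47 lay below 0 at both times, 18 above 0 at both, 13 below 0 and then above, and 4 above 0 and then below. No member's ratio differed between the times by 2-fold or more, the range of the difference being -0.86 to 0.49. The median difference was -0.02 over the members, beside -0.08 over all compared genes. The counts and correlations of this paragraph are not given for all compared genes, so they cannot be called particular to the members.

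**Figure D3:**
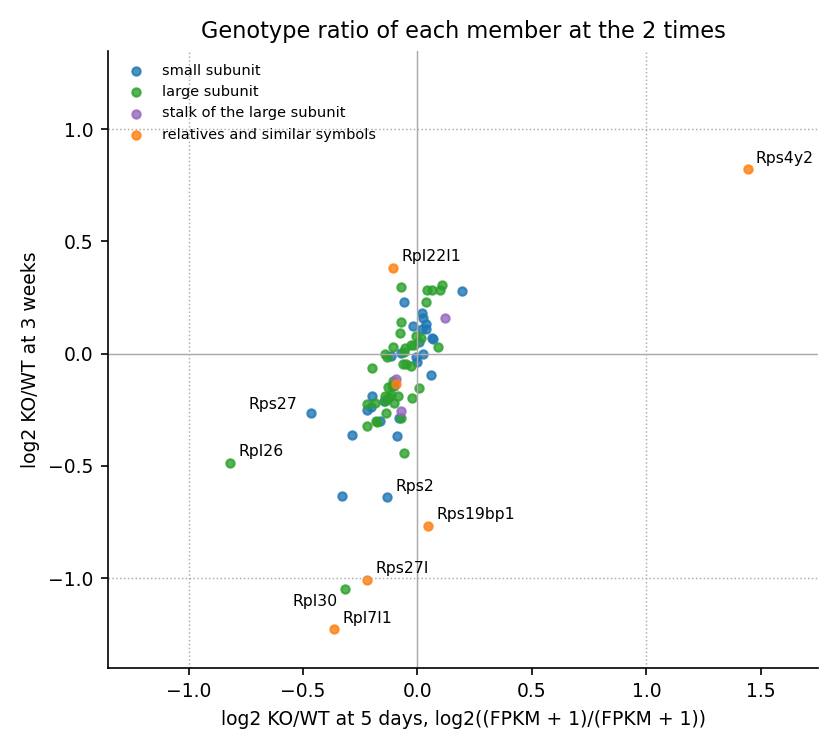
Log2 ratio of KO to WT at 5 days (horizontal) and at 3 weeks (vertical) for the 82 members, 1 point per gene, coloured by subunit, with dotted lines at 2-fold. Most points lie within 0.3 of 0 on both axes, Rpl7l1, Rpl30 and Rps27l lie past 2-fold lower at 3 weeks, and Rps4y2 stands alone on the right.

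Of the 3 members at least 2-fold lower in KO at 3 weeks, 2 were relatives (Rpl7l1 and Rps27l) and 1 was an ordinary ribosomal protein (Rpl30). At the smaller fold 10 members were lower, 7 of them ordinary ribosomal proteins and 3 relatives or similar symbols. Rpl7l1, a paralogue of Rpl7 that takes part in ribosome assembly (chr17:46773907-46782672, GRCm38, 6 exons), stood at 33.5 FPKM for WT and 25.7 for KO at 5 days, then 41.7 for WT and 17.3 for KO at 3 weeks. WT 3-week was the highest library and KO 3-week the lowest. At 3 weeks KO was 41.3% of WT, with a 95% counting interval of 36.9% to 46.4% (exact Clopper-Pearson, from inferred reads, covering counting error only), a log2 ratio of -1.23, and at 5 days KO was 76.9% of WT. Its ordinary counterpart Rpl7 stood at 1026, 929, 934 and 806 FPKM in that library order, with log2 ratios of -0.14 and -0.21.

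Rps27l, a paralogue of Rps27 known as a p53 target (chr9:66946086-66949516, 4 exons), stood at 210 FPKM for WT and 181 for KO at 5 days, then 304 for WT and 151 for KO at 3 weeks. WT 3-week again stood above the other 3 libraries. At 3 weeks KO was 49.6% of WT (counting interval 45.9% to 53.5%), and at 5 days 85.9% (79.4% to 92.9%). Rps27 itself was measured at only 8.35 to 12.5 FPKM, with log2 ratios of -0.47 at 5 days and -0.26 at 3 weeks, and its counting intervals included 100% at both times. Rps19bp1, which is named for binding Rps19 and is not a ribosomal protein (chr15:80260615-80264315, 4 exons), stood at 19.2 FPKM for WT and 19.9 for KO at 5 days, then 25.4 for WT and 14.5 for KO at 3 weeks. KO and WT were alike at 5 days, and at 3 weeks KO was 57.2% of WT (48.1% to 68.3%).

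Rpl30, a large-subunit protein (chr15:34440505-34443640, 4 exons), was the ordinary member furthest below WT at 3 weeks. It stood at 52.5 FPKM for WT and 42.0 for KO at 5 days, then 71.9 for WT and 34.2 for KO at 3 weeks. Rpl30 was highest in WT 3-week, as were Rpl7l1, Rps27l and Rps19bp1, and unlike nearly all other ordinary members, of which only Rps25 was also highest in that library. At 3 weeks KO was 47.6% of WT (41.1% to 54.9%). Rpl30 is one of the members with 10 near-identical copies, so its level and its ratio may hold reads of other loci.

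Rps2, a small-subunit protein (chr17:24718116-24721929, 6 exons) with 14 near-identical copies, stood at 99.4, 90.5, 87.3 and 55.7 FPKM. KO 3-week stood apart from the other 3 libraries, at 63.8% of WT 3-week (58.8% to 69.1%). Rpl36a, Rps25, Rps20 and Rpl26 were also among the ordinary members at least 20% lower at 3 weeks, with log2 ratios of -0.44, -0.36, -0.36 and -0.49.

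Rpl26, a large-subunit protein known to bind p53 mRNA, had the lowest 5-day ratio. It stood at 23.0 FPKM for WT and 12.6 for KO at 5 days, then 16.1 for WT and 11.2 for KO at 3 weeks, a log2 ratio of -0.82 at 5 days. Both KO libraries lay below both WT libraries, and KO was 54.9% of WT at 5 days (42.0% to 71.4%) and 69.6% at 3 weeks (51.4% to 92.4%). These values rest on 78 to 155 inferred reads per library. Rps20 stood at 1666, 1365, 1485 and 1155 FPKM, lower in KO at each time, with a log2 ratio of -0.29 at 5 days.

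**Figure D4:**
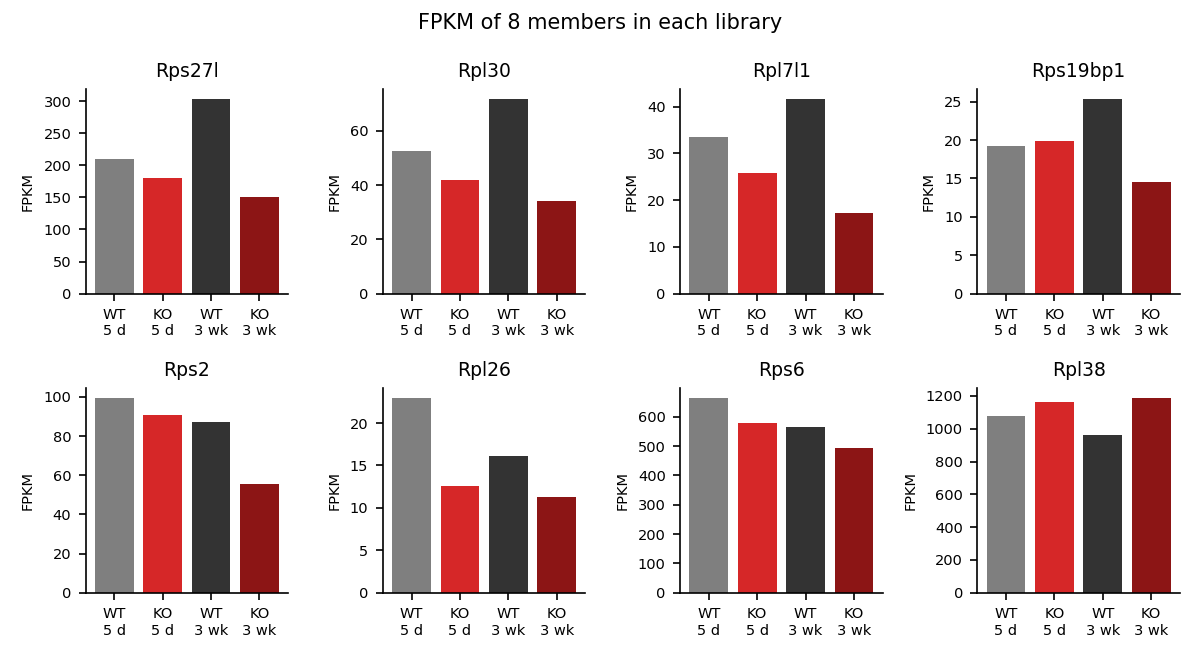
FPKM in WT and KO at 5 days and 3 weeks for 8 members, 1 bar per library, each panel with its own axis from 0. Rps27l, Rpl30, Rpl7l1 and Rps19bp1 share a high WT 3-week bar, Rps2 and Rpl26 are lowest in KO 3-week, and Rps6 and Rpl38 show the smaller differences found for most members.

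Members above WT in KO numbered 22 of 82 at 5 days, beside 5061 of the 10973 compared genes. At 3 weeks they numbered 31 of 82, beside 4822 compared genes, and 44 under upper-quartile scaling, beside 5747. Most of these members were above WT by small amounts. Rps4y2 had the highest ratio at each time, at 0.55 FPKM for WT and 3.21 for KO at 5 days, then 0.63 for WT and 1.88 for KO at 3 weeks. Both KO libraries were above both WT libraries, but the values rest on 7 to 43 inferred reads, and the current symbol of the gene, Rps4l, is annotated as a transcribed processed pseudogene. It was under 1 FPKM in both WT libraries and met the minimum mean only through the KO libraries, so its higher KO values were favoured by that minimum and are a description. KO was 583% of WT at 5 days (counting interval 251% to 1480%) and 298% at 3 weeks (131% to 716%). Rpl22l1, the paralogue that can take the place of Rpl22, a protein needed for the development of alpha-beta T cells, stood at 53.2 FPKM for WT and 49.4 for KO at 5 days, then 42.0 for WT and 55.0 for KO at 3 weeks. It was lowest in WT 3-week, and KO was 131% of WT at 3 weeks (113% to 151%) and 92.9% at 5 days (80.5% to 107%). Rpl22 stood at 131, 129, 122 and 106 FPKM, so that at 3 weeks Rpl22 was lower and Rpl22l1 higher in KO, with log2 ratios of -0.20 and 0.38.

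Rpl38 and Rps7 were higher in KO at both times by small amounts. Rpl38, a large-subunit protein required for translation of a subset of Hox mRNAs (chr11:114668524-114672331, 5 exons), stood at 1080 FPKM for WT and 1163 for KO at 5 days, then 960 for WT and 1188 for KO at 3 weeks. KO was 108% of WT at 5 days (103% to 113%) and 124% at 3 weeks (118% to 130%). Rps7, a small-subunit protein that can bind Mdm2, stood at 369, 423, 348 and 423 FPKM in that library order. Both KO libraries lay above both WT libraries for each of these genes. Rpl17 also had a 3-week log2 ratio of 0.28, and Rpl37a and Rplp2 had 5-day ratios of 0.09 and 0.12.

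Most of the other well-studied members were within 20% of the WT level. Rps6, the substrate of the S6 kinases (chr4:86854660-86857412, 5 exons), stood at 664 FPKM for WT and 579 for KO at 5 days, then 564 for WT and 495 for KO at 3 weeks. It was lower in KO at both times by about the same amount, at 87.2% of WT (84.7% to 89.8%) and 87.7% (85.0% to 90.5%). Rpl5 and Rpl11, which together bind Mdm2 when ribosome assembly fails, had log2 ratios of -0.22 and -0.14 at 5 days and of -0.23 and -0.19 at 3 weeks. Rps27a, made as a fusion with ubiquitin, had -0.22 and -0.25. Rpl3, near the catalytic centre of the large subunit, had -0.10 and -0.22. All of these were lower in KO at both times, at 83.9% of WT or more. Rpl10, which joins the large subunit late in assembly, had 0.04 and 0.28. Rps3 had 0.04 and 0.13, Rps19 had 0.02 and 0.00, and Rpl39 had 0.02 and 0.07, values so near 0 that Rps19 and Rpl39 crossed it under other scalings. Of the stalk, Rplp0 had -0.09 and -0.11, Rplp1 -0.07 and -0.26, and Rplp2 0.12 and 0.16, so members of the same structure stood on both sides of WT, although Rplp0 at 3 weeks was at 0.02 under upper-quartile scaling. Rpl36al, the paralogue of Rpl36a, had -0.10 and -0.14 where Rpl36a had -0.06 and -0.44.

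Within each genotype, ribosomal protein mRNA was lower in the longer culture. The median log2 ratio of 3 weeks to 5 days was -0.17 in WT, with 75 of 82 members below 0, and -0.19 in KO, with 73 below 0, and 66 members were lower in both. Over all 10973 compared genes the medians were 0.01 and -0.06, with 5249 genes below 0 in WT and 6233 in KO. The number lower in both genotypes is not given here for all compared genes. In WT, 7 members were at least 20% lower (15.1% of compared genes) and 3 at least 25% higher (17% of compared genes), Rps27l, Rpl30 and Rps19bp1. In KO, 12 were at least 20% lower (26.5% of compared genes) and 0 at least 25% higher (17.9% of compared genes). The differences with time were small and mostly in 1 direction, and no member was 2-fold lower at 3 weeks in either genotype. The WT and KO contrasts with time share no library with each other, but each shares its libraries with the genotype contrasts above.

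The rest of the machinery that builds and uses ribosomes gave larger genotype differences than the ribosomal proteins did. The 41 compared genes of ribosome assembly and ribosomal RNA processing had a median log2 ratio of KO to WT of -0.45 at 5 days and -1.18 at 3 weeks, where 29 were at least 2-fold lower (8.19% of compared genes) and 0 at least 2-fold higher. Under upper-quartile scaling the 3-week median was -1.04, with 25 at least 2-fold lower, where 680 of the 10973 compared genes were. Gar1, a protein of the RNA-guided pseudouridylation complex, stood at 44.5 FPKM for WT and 24.0 for KO at 5 days, then 44.9 for WT and 8.69 for KO at 3 weeks. Nop58, of the complex that guides ribosomal RNA methylation, stood at 68.3, 41.2, 96.7 and 22.1 FPKM. Sbds, which acts in the release of a factor from the finished large subunit, stood at 41.2 to 42.4 FPKM in the 4 libraries. The assembly genes thus moved apart from the ribosomal proteins with time as well. In WT their median log2 ratio of 3 weeks to 5 days was 0.42, with 36 of 41 above 0, and in KO it was -0.39, with all 41 below 0.

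Other groups lay between. The 76 mitochondrial ribosomal protein genes, whose products form the separate ribosome of mitochondria, had median ratios of KO to WT of -0.19 and -0.59. At 3 weeks 10 were at least 2-fold lower (8.19% of compared genes were) and 58 at least 20% lower (34.6% of compared genes). Of the 82 cytoplasmic members, 10 were lower at the smaller fold. Under upper-quartile scaling the 3-week median of the 76 mitochondrial genes was -0.465. There 4 were at least 2-fold lower and 51 at least 20% lower, where 680 and 3048 of the 10973 compared genes were. The 34 initiation factor genes had medians of -0.25 and -0.53, with 5 at least 2-fold lower at 3 weeks, beside the same 8.19%. Eif4e, the cap-binding protein, was among these, at 23.7 FPKM for WT and 18.3 for KO at 5 days, then 29.5 for WT and 11.6 for KO at 3 weeks. Under upper-quartile scaling the 3-week median of the initiation factors was -0.40. In that setting 2 were at least 2-fold lower, where 680 of the 10973 compared genes were. The 8 genes listed with the elongation factors, not all of them elongation factors themselves, had medians of -0.15 and -0.29. Eef1a1 (0.02 and 0.18) and Eef2 (-0.13 and 0.04), the most abundant, lay near WT. Eif5a (-0.33 and -1.08) and Eef1e1 (-0.49 and -1.76) lay at least 2-fold lower at 3 weeks. Under upper-quartile scaling 1 of the 8 was at least 2-fold lower at 3 weeks, where 680 of the 10973 compared genes were. Eef2k, the kinase that inhibits Eef2, went past 2-fold in the other direction, with log2 ratios of 1.48 at 5 days and 1.32 at 3 weeks. The 14 chaperones and importers of single ribosomal proteins, among which Rps19bp1 is counted again, had -0.22 and -0.61. Grwd1, a chaperone of Rpl3, was the lowest of them at 11.1, 6.56, 19.0 and 3.42 FPKM.

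**Figure D5:**
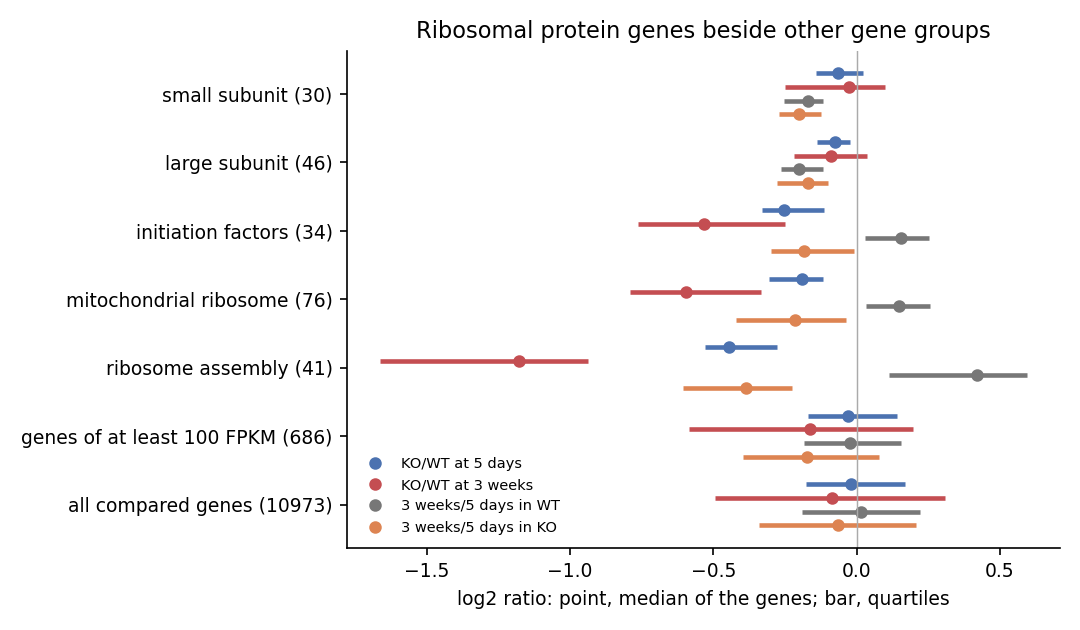
Median (point) and quartiles (bar) of the log2 ratio over the genes of each group, for KO against WT at 5 days and 3 weeks and for 3 weeks against 5 days in WT and in KO. Both subunits lie near 0 between genotypes, where upper-quartile scaling puts their 3-week medians at 0.11 (small) and 0.05 (large), while assembly genes reach a median of -1.18 at 3 weeks.

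Of genes for ribosomal constituents outside the symbol pattern, Rpsa had log2 ratios of KO to WT of -0.07 and -0.21, and Gnb2l1 (the small-subunit scaffold protein also called Rack1) lay near 0 at both times, at 0.00 and 0.01. Fau, made as a fusion of a ubiquitin-like protein with Rps30, stood at 701 FPKM for WT and 778 for KO at 5 days, then 556 for WT and 766 for KO at 3 weeks. The 23 other genes known for TOP mRNAs, which share members with the factor and assembly lists, had medians of -0.19 and -0.24. At 3 weeks 4 of them were at least 2-fold lower (8.19% of compared genes). These were Nap1l1, Hnrnpa1, Gas5 and Snhg1 at log2 ratios of -1.19, -1.39, -1.45 and -1.11, while Tpt1 was at 0.29 and 0.47. Under upper-quartile scaling 3 of these 23 genes were at least 2-fold lower at 3 weeks, where 680 of the 10973 compared genes were. The 5 compared pseudogene symbols of ribosomal proteins had medians of -0.01 and 0.08. Of 21 genes that control ribosomal protein mRNA or S6 signalling, Myc, a transcription factor that drives ribosome production, was at 38.5 FPKM for WT and 20.3 for KO at 5 days, then 75.8 for WT and 14.7 for KO at 3 weeks. Larp1, the TOP-binding protein, was at 32.2, 24.2, 39.4 and 20.6 FPKM. Myc and Larp1 were highest in WT 3-week and lowest in KO 3-week, as were Rpl7l1, Rpl30, Rps27l and Rps19bp1. Genes of the other lists, such as Nop58, Gar1, Eif4e and Grwd1, were too, so this is not particular to Myc and Larp1. The part of Myc and Larp1 in the members' values was not tested. At 3 weeks 6 of the 21 control genes were at least 20% lower in KO (34.6% of compared genes) and 5 at least 25% higher (24.5% of compared genes). Under upper-quartile scaling 4 were lower and 7 higher, where 3048 and 3353 of the 10973 compared genes were. Those higher as deposited included Mycn, at 0.58, 1.16, 0.07 and 3.47 FPKM, Rptor, a partner of mTOR, at 12.0, 13.9, 8.91 and 15.3, and Pdcd4, a translation inhibitor, at 69.8, 58.9, 31.7 and 58.1. The list's own medians were -0.06 and -0.09, and Mtor stood at 7.0 to 8.49 FPKM in all 4 libraries.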

How the data were processed

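RNA of 4 Th2 libraries was isolated with TRIzol and prepared by the TruSeq Stranded mRNA method, as the labels' protocols state. The authors deposited FPKM values, made with Bowtie 0.12.8, TopHat 1.3.2, Cufflinks 2.0.2 and mm10, per the submitters' processing notes. Annotation, strand use and treatment of reads with several matches: not given in the sources used here. The 23746 lines of a file were read, lines of 1 symbol were summed, and 1 symbol with an error mark was left out, leaving 23283. Samples were grouped by the genotype and culture time of the labels, 1 per group. Every ratio is log2((a + 1)/(b + 1)), which makes differences of low genes look smaller. Genes were compared at a mean of at least 1 FPKM (10973 symbols), and counts used a fold of 2 and a smaller fold (25% higher or 20% lower) with no test and no p-value.

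Depth was inferred from the steps of low FPKM values of genes with 1 transcript, with 200 bases taken off the length (within 0.05 of a whole read for 59.6% to 63.2% of the values used). Counting intervals used the reads this implies, are approximate and cover counting error only. Gene positions and copies came from GENCODE M21 (GRCm38) with blastn 2.17.0, and start windows from RefSeq. The steps were run with Python 3.11.15, pandas 2.3.3 and scipy 1.17.1, and tested on simulated data. Protein sequences of the members were not analysed here.

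Named members were the 6 highest and 6 lowest ratios of each genotype contrast, those at least 2-fold apart, the 4 highest and 4 lowest in level, the 4 with the largest difference between times in each direction, and a list of well-known members. Rps25 and other members listed for their copies were named in addition, after their values were seen. Results for some of these members are left out and not reported here. The members and all gene lists were chosen with earlier results of these data known. Alternatives were other pseudocounts, filters on the mean and scalings, the highest line of each symbol, and pseudogene symbols added to the parent gene.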

Additional observations from a re-analysis of the deposited data

Results flagged for a closer look

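Rpl13a, a large-subunit protein that is also known as part of a complex silencing the translation of inflammatory mRNAs, was on opposite sides of WT at the 2 times. It stood at 614 FPKM for WT and 584 for KO at 5 days, then 510 for WT and 626 for KO at 3 weeks. KO was 95.2% of WT at 5 days (counting interval 92.7% to 97.7%) and 123% at 3 weeks (120% to 126%), so the log2 ratio was higher by 0.37 at 3 weeks. It was picked out because the counting intervals at the 2 times lie on opposite sides of 100%. The difference was not tested, since each group held 1 library. Rpl13a holds 5 small RNA genes inside its locus and has 2 near-identical copies.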

How the results depend on the processing

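No paired analysis was possible because each group held 1 library, and leaving out a library would end a contrast. Ratios of single members gave 680 alternative values, of which 550 stayed within 0.052 (log2, the typical half-width of a counting interval) of the reported value and 130 moved further. Of ratios at least 25% above or 20% below WT, 0 changed direction. Among the smaller ratios 12 alternative values, all under another scaling, lay on the other side of 0, for Rpl22, Rpl37a, Rpl39, Rpl41, Rplp0, Rps15 and Rps19. The members' 3-week median was 0.054 under upper-quartile scaling, -0.022 under median-of-ratios scaling and -0.134 when libraries were scaled to equal sums without short RNA genes. Members at least 2-fold lower in KO at 3 weeks numbered 1 with a pseudocount of 5, 1 under upper-quartile and 1 under median-of-ratios scaling. Those at least 20% lower numbered 20 under equal sums. Members at least 25% higher at 3 weeks numbered 1 with a pseudocount of 5, 1 at a mean of at least 5 FPKM, 10 under upper-quartile and 8 under median-of-ratios scaling. Those at least 2-fold higher at 3 weeks numbered 1 with a pseudocount of 0.1 and 2 under equal sums. At 5 days, members at least 25% higher numbered 0 at a mean of at least 5 FPKM, 2 with no filter and 2 under equal sums. Those at least 2-fold higher at 5 days numbered 0 with a pseudocount of 5, 0 at a mean of at least 5 FPKM, 2 with no filter and 2 under equal sums, which add Rpl39l. The share of FPKM was 14.4%, 13.4%, 12.5% and 11.3% in WT 5-day, KO 5-day, WT 3-week and KO 3-week under equal sums, and 11.1% in KO 3-week without granzyme genes, an alternative chosen after seeing the data. The cause of these moves was not tested beyond what each alternative leaves out or rescales. No mitochondrially encoded gene symbol was found (0 symbols), so that exclusion removed nothing. Few reads limit Rps4y2, Rpl21, Rps27 and Rpl26, and near-identical copies limit most members.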
